A study of Mus musculus with 4 samples.

Results

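The genes of the proteasome were examined in RAW264.7 cells, a mouse macrophage line, from lists of ATAC-seq peaks. Members were all protein-coding genes whose symbol begins with Psma, Psmb, Psmc, Psmd or Psme followed by a number. This gave 46 of the 21887 protein-coding genes listed by RefSeq for GRCm38.p6, which shares its chromosomes with mm10. They comprised 34 constitutive subunits (7 alpha and 7 beta genes of the 20S core, and 6 ATPase and 14 non-ATPase genes of the 19S cap, the last including assembly chaperones), the 5 immunoproteasome genes Psmb8, Psmb9, Psmb10, Psme1 and Psme2, the other activators Psme3 and Psme4, and the tissue-restricted Psma8 and Psmb11. The remaining 3 match the name pattern but were not counted as subunits: Psmc3ip, a meiotic recombination factor, Psme3ip1, a partner of Psme3, and Psme2b, a near copy of Psme2.

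ATAC-seq marks open chromatin by the cuts of the Tn5 transposase. All 4 libraries came from wild-type cells given 25 ug/mL DIL-oxLDL, an oxidized lipoprotein with a fluorescent dye, for 24 h. The solvent DMSO was given to control replicates 1 and 2, named C1 and C2, and 40 ug/mL of the plant coumarin esculetin to esculetin replicates 1 and 2, named E1 and E2. The design compares open chromatin with and without esculetin in cells loaded with oxLDL. All libraries are of 1 cell line, without cells free of oxLDL, and nothing states that replicates came from separate cultures, so a spread between replicates may be technical.

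The proteasome degrades proteins marked with ubiquitin. Its 20S core is a barrel in which rings of alpha subunits gate the entrance and rings of beta subunits hold the catalytic sites. The 19S cap binds ubiquitin chains, removes them, and unfolds the substrate with a ring of ATPases. In cells exposed to interferon, and constitutively in many immune cells, Psmb9, Psmb10 and Psmb8 replace the catalytic subunits Psmb6, Psmb7 and Psmb5, and Psme1 with Psme2 forms an alternative cap. The resulting immunoproteasome changes the peptides offered for presentation on major histocompatibility complex class I.

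A peak list gives the places where the authors' peak caller found more reads than background in 1 library. Each member was scored for a peak with its summit within 1 kb of an annotated transcription start, called here a promoter peak. The strength of a peak is given as a percentile, the place of the peak from the bottom of its own list, ordered by −log10 p, in percent of the number of peaks and with ties at their mean place. A value of 90 is thus near the top of that library's list. Since read counts are not part of the lists, a lower percentile is a lower place in the list and not a measured loss of accessibility. A weak peak in all cells cannot be told apart from a strong peak in few cells.

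The lists differed in length and content. They held 19595 and 27833 peaks in C1 and C2 and 8677 and 12792 in E1 and E2, and the solved background coverage, which scales with depth, was 6.51, 4.08, 4.97 and 4.10 in the same order. C2 stood apart, with 7.38% of its peaks in annotated pseudogenes against 0.829% to 1.96% in the other lists. The number inside the peak names was 2 for the library labelled E1 and 3 for the one labelled E2, while it matched the label in both controls. Of 10 macrophage markers, 5, 6, 1 and 3 had a promoter peak in C1 and C2 and E1 and E2, against 40.0%, 41.2%, 29.5% and 37.2% of all coding genes, so these counts do not set the markers apart. No library had one at Csf1r, Itgam or Adgre1, which are defining genes of macrophages. None of 18 markers of T cells, B cells, hepatocytes, kidney epithelium and fibroblasts had a promoter peak in any library.

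The promoters of the immunoproteasome genes are shown first, because 2 of the 5, Psmb8 and Psmb10, had no promoter peak in any library, whereas Psmb9 and Psme2 had one in all 4. Each line gives the 200 bases before the annotated start from RefSeq (GRCm38.p6), 5′ to 3′ on the strand of the gene. Capitals mark, on either strand, CCAAT (the core bound by NF-Y), GGGCGG (the core of a GC box), CCGGAA (an ETS core) and TGACNNNGC (the core of an antioxidant response element).
Psmb8, chr17:34197995-34198194, plus strand: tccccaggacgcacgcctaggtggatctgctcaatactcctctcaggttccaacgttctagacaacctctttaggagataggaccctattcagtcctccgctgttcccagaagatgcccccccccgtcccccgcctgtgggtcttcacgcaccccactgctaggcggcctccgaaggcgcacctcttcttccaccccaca
Psmb9, chr17:34187331-34187530, minus strand: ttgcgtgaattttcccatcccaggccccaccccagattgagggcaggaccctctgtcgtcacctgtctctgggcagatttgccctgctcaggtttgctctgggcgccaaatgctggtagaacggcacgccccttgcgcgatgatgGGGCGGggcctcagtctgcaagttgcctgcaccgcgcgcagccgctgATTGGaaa
Psmb10, chr8:105938393-105938592, minus strand: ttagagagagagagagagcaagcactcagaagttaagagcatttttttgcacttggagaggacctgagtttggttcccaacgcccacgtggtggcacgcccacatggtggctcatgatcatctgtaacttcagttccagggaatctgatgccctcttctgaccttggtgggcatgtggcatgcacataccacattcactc
Psme1, chr14:55578294-55578493, plus strand: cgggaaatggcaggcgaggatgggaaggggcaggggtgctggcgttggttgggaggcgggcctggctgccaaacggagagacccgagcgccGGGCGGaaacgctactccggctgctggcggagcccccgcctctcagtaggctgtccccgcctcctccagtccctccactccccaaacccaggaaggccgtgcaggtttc
Psme2, chr14:55591102-55591301, minus strand: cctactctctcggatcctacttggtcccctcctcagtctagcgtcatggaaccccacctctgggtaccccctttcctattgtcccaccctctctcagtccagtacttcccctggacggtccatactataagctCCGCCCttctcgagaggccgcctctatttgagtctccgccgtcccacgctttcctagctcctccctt
The Psmb8 and Psmb10 windows hold none of the 4 words, whereas the other 3 windows hold GGGCGG and that of Psmb9 also CCAAT. The Psmb10 promoter, over 250 bases before to 50 after the start, had 3 CpG dinucleotides and 45.7% GC. That of Psmb8 had 11 CpG and 55.3% GC, the same CpG count as Psme2, which had a peak in all 4 libraries. Psmb9 had 17 CpG and Psme1 19, against a median of 13 over 17492 coding promoters.

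Constitutive promoters are shown for comparison. Psmb5 and Psmb6 are the catalytic counterparts of Psmb8 and Psmb9, Psmb3 lacked a peak in C1 alone, Psma5 ranked high in every list, and Psma2 and Psmd8 had higher percentiles and folds in both esculetin libraries.
Psmb5, chr14:54617996-54618195, minus strand: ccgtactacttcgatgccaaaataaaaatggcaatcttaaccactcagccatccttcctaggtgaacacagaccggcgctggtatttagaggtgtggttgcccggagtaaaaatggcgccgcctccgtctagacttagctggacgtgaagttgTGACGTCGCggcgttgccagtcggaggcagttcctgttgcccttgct
Psmb6, chr11:70525157-70525356, plus strand: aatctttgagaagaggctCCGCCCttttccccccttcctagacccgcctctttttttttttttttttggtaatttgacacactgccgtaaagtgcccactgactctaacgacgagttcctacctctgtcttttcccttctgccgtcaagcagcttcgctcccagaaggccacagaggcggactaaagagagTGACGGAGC
Psmb3, chr11:97703234-97703433, plus strand: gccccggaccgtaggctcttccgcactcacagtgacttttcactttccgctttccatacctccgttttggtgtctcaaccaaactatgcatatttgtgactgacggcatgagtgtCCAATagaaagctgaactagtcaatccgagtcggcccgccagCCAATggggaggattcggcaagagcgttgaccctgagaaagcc
Psma5, chr3:108256726-108256925, plus strand: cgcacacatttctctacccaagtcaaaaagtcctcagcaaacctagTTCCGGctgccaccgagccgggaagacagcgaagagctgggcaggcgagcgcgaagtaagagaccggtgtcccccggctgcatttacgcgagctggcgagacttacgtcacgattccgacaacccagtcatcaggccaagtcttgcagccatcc
Psma2, chr13:14613042-14613241, plus strand: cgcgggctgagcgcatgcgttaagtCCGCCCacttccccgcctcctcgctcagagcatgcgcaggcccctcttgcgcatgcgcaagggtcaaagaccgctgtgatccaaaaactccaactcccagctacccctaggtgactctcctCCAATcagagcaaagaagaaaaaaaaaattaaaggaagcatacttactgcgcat
Psmd8, chr7:29180674-29180873, minus strand: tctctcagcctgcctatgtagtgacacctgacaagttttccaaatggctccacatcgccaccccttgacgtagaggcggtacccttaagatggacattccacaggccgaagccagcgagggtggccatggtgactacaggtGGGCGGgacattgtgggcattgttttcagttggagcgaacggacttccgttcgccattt
Among the 28 constitutive subunits with a promoter sequence, CCGGAA was found in 14 promoters (250 bases before to 50 after the start), against 19.1% of all coding promoters. It was found in 0 of the 5 immunoproteasome promoters. GGGCGG was found in 18 of the 28 constitutive and 3 of the 5 immunoproteasome promoters, against 46.3% of coding promoters. CCAAT was found in 11 and 1 (background 39.2%), and TGACNNNGC in 5 and 0 (13.1%). The 5 with TGACNNNGC were Psmb5, Psmb6, Psmc6, Psmd9 and Psmd12. GATGGCG was found in 6 constitutive promoters (4.45%) and TGCGCANGC in 4 (5.77%), and neither was found at an immunoproteasome gene. The interferon-type word of GAAA repeated after 2 bases was found at Psme1, just past its start, and at the constitutive Psmb3, Psmd4 and Psmd9 (3.40%). The word of GGG and CC spaced by 5 bases, a loose form of the NF-kappaB site, was found at 15 constitutive promoters and at Psmb9, Psme1 and Psme2 (56.4%). The median CpG count was 19.5 at constitutive and 11 at immunoproteasome promoters. These matches describe the letters and are not binding sites. The word of GGG and CC can overlap GGGCGG, as it does at Psmb9.

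Most of the 46 genes had a promoter peak in each library. In C1 and C2, 36 (78.3%) and 38 (82.6%) members had a promoter peak, against 40.0% and 41.2% of 21468 coding genes with an annotated start. In E1 and E2 there were 27 (58.7%) and 37 (80.4%), against 29.5% and 37.2%. The mean was 37 ± 1.41 genes in the controls and 32 ± 7.07 in the esculetin group (SD, n = 2 each), so the groups overlapped through E2. The difference of -5 genes became 0 without E1 and -10 without E2. The share of members exceeded that of coding genes by 29.2 to 43.2 percentage points in every list. When each list was reduced to its 8677 strongest peaks, the length of the shortest, the counts became 25, 20, 27 and 34. The direction between groups then turned, with both esculetin libraries above both controls, and all coding genes moved the same way (27.2% and 19.1% against 29.5% and 32.0%).

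**Figure D1:**
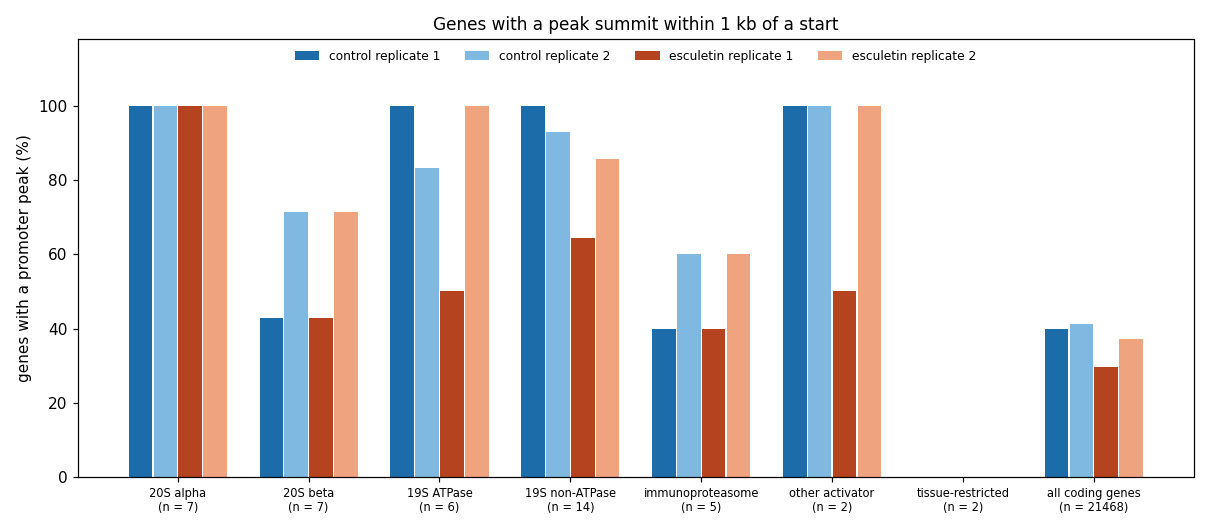
Share of genes with a promoter peak (y axis, percent) in each class of members and in all coding genes (x axis, number of genes below each name). Each library has 1 bar, and the 3 members not counted as subunits are left out. All 7 alpha subunits were called in every library, no tissue-restricted gene was, and E1 was lowest or tied for lowest in each class where the libraries differ.

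A promoter peak was found in all 4 libraries at 26 members (56.5%), against 26.3% of coding genes. It was missing from all 4 at 4 members, Psmb8, Psmb10, Psmb11 and Psma8, against 53.6%. E1, the shortest list, alone lacked the peak at 6 members (Psmc1, Psmc2, Psmd7, Psmd10, Psmd11 and Psme4), or 13.0% against 6.10% of coding genes. Psmb1 and Psmd1 had a peak in both controls and in no esculetin library, against 3.68% of coding genes. The opposite pattern occurred at 0 members and at 0.424% of coding genes.

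The 7 alpha subunits, which gate the 20S barrel, had a promoter peak in all 4 libraries. Psma1 ranked highest of all members by mean percentile. Its values were 96.5 and 95.0 in C1 and C2 and 80.4 and 93.8 in E1 and E2, so its groups did not overlap but C2 and E2 lay close. Psma2 was second, with 88.5 and 86.0 in the controls and 95.4 and 93.6 in the esculetin libraries. Both esculetin values lay above both controls, the opposite of Psma1. Psma5 had 89.99 and 90.4 in the controls and 71.3 and 93.5 in the esculetin libraries, and its groups overlapped.

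Psma4 had the largest difference in percentile among the members with a peak in all 4 lists. Its values were 89.4 and 86.7 in C1 and C2 and 41.5 and 56.6 in E1 and E2, means of 88.0 ± 1.90 and 49.1 ± 10.7 (SD, n = 2 each). The difference of -39.0 percentile points exceeded the spread of both groups, with an exact permutation p of 0.33, the least that 2 against 2 libraries allow. Its fold enrichment over background was 5.18 and 7.10 in the controls and 3.85 and 4.67 in the esculetin libraries, also without overlap. Its rank from the top was 2085 and 3708 against 5078 and 5552. AY074887, a coding gene on the opposite strand, starts 95 bp inside Psma4 and overlaps it. The summits lay 90 to 161 bp upstream of the start of Psma4 and inside AY074887 in all 4 lists. The peak therefore cannot be assigned to either gene.

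The other alpha subunits ranged more widely. Psma3 had 77.9 and 83.4 in the controls and 47.2 and 71.6 in the esculetin libraries. Psma6 had 96.9 and 69.9 against 64.1 and 69.4, and its groups were separated by less than 1 percentile point. Psma7 had 81.3 and 72.3 against 62.5 and 37.4. In all, 5 of the 7 alpha genes were lower in both esculetin libraries by percentile in the list, against 30.1% of the 5642 coding genes with a peak in all 4. Among promoter peaks 4 were lower (Psma1, Psma3, Psma4 and Psma7), against 27.0%, and by fold 1 (Psma4), against 10.7%. The median over the 7 was 89.4, 86.0, 64.1 and 71.6 in the order of the libraries, and the median rank from the top, 2085, 3905, 3116 and 3636, overlapped between the groups.

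**Figure D2:**
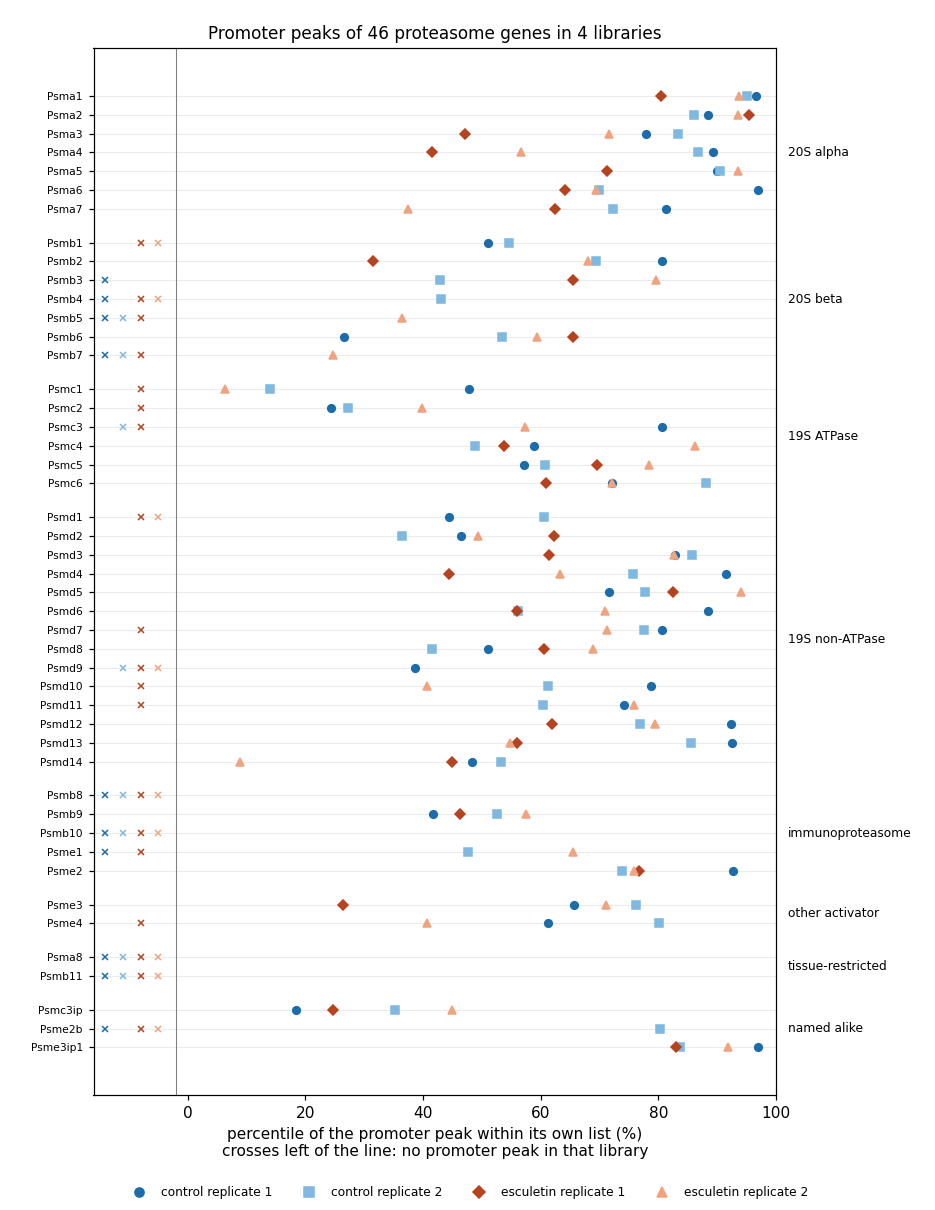
Percentile of the promoter peak within its own list (x axis, percent) for each of the 46 genes (rows, grouped by class), with 1 symbol per library and crosses at the left where a library had no promoter peak. The alpha subunits have a symbol from every library, between 37.4 (Psma7 in E2) and 96.9 (Psma6 in C1), while Psmb8, Psmb10, Psma8 and Psmb11 have crosses only.

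The beta subunits, which form the catalytic rings, were called less completely, with 3, 5, 3 and 5 of 7 in C1 and C2 and E1 and E2, or 42.9%, 71.4%, 42.9% and 71.4%, against 40.0%, 41.2%, 29.5% and 37.2% of coding genes. Of the 3 catalytic genes, Psmb6, the caspase-like site, had a peak in all 4 libraries. Its percentiles were 26.6 and 53.5 in the controls and 65.6 and 59.4 in the esculetin libraries, so both esculetin values were higher. Psmb5, the chymotrypsin-like site, was called in E2 alone, at 36.3. Psmb7, the trypsin-like site, was also called there alone, at 24.7. These values lie in the lower part of that list.

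Psmb2 had 80.7 and 69.4 in the controls and 31.6 and 68.1 in the esculetin libraries, a small gap that rests on C2 and E2. Psmb3 had no peak in C1 and percentiles of 42.9 in C2 and 65.6 and 79.7 in the esculetin libraries. Psmb4 was called in C2 alone, at 43.03. Psmb1 was called at 51.0 and 54.7 in the controls and in neither esculetin library. The structural beta genes therefore showed 4 different patterns over the 4 libraries.

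The 6 ATPases of the 19S ring were called at 6, 5, 3 and 6 genes, or 100%, 83.3%, 50% and 100%, against 40.0%, 41.2%, 29.5% and 37.2% of coding genes. Psmc4, Psmc5 and Psmc6 had a peak in all 4 libraries. Psmc5 had 57.2 and 60.7 in the controls and 69.6 and 78.4 in the esculetin libraries, without overlap, and its start lies 101 bp from that of the divergent gene Ftsj3. Psmc4 had 58.9 and 48.9 against 53.7 and 86.2, and Psmc6 had 72.2 and 88.1 against 60.8 and 72.2, and both overlapped. Psmc1 had 47.8 in C1, 14.0 in C2 and 6.28 in E2, so the controls alone spanned most of its range. Psmc2 had 24.4, 27.3 and 39.9 in the same 3 libraries, but from different peaks. The C2 peak lies 125 bp upstream of its first start, beside Dnajc2, while those of C1 and E2 lie 14 bp upstream of and at its second start, with summits up to 1597 bp apart. Psmc3 was called in C1 at 80.7 and in E2 at 57.3.

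Among the non-ATPase genes of the 19S cap, 14, 13, 9 and 12 of 14 were called, or 100%, 92.9%, 64.3% and 85.7%, against the same shares of coding genes, which were also lowest in E1. The ubiquitin receptor Psmd4 had 91.4 and 75.7 in the controls and 44.3 and 63.3 in the esculetin libraries. The lid subunit Psmd13, whose start lies 85 bp from that of Sirt3, had 92.6 and 85.6 against 55.9 and 54.8. Both were lower in both esculetin libraries by percentile and by fold. The C1 value of Psmd13 is from a stronger peak 526 bp upstream, inside Sirt3, which shares no base with the peaks of C2, E1 and E2 at 37 to 58 bp upstream. C1 also had a peak 47 bp upstream, at percentile 88.9 and fold 5.64, above both esculetin values (folds 5.19 and 5.31) on either scale. The lid subunit Psmd3 had 82.8 and 85.7 against 61.4 and 82.7, with C1 and E2 nearly equal. Psmd14, the deubiquitinase of the cap, was among the lowest, with 48.3 and 53.2 against 45.0 and 8.81.

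A second set of cap genes ranked higher in both esculetin libraries. The scaffold subunit Psmd2, also among the 3 lowest by mean, had 46.5 and 36.5 in the controls and 62.3 and 49.4 in the esculetin libraries. The lid subunit Psmd8 had 51.0 and 41.6 against 60.5 and 68.9. The assembly chaperone Psmd5 had 71.6 and 77.8 against 82.5 and 94.0. The exact permutation p was 0.33 for each of these 3 genes, which is the least it can be here.

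Another 5 cap genes lacked a peak in at least 1 library. The scaffold Psmd1 had 44.4 and 60.6 in the controls only. The chaperone Psmd9 was called in C1 alone, at 38.6. Psmd7, Psmd10 and Psmd11 had 80.7, 78.7 and 74.1 in C1, 77.5, 61.3 and 60.5 in C2 and 71.3, 40.7 and 75.9 in E2. Psmd6 and Psmd12 had a peak in all 4 libraries, with percentiles from 55.9 to 88.5 and from 61.9 to 92.4, and their groups overlapped.

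Over the constitutive genes called in each library, the median percentile was 78.3, 65.3, 61.7 and 69.2 in C1 and C2 and E1 and E2. The median over all coding genes with a promoter peak was 71.6, 66.3, 59.9 and 67.0. The control mean was 71.8 ± 9.16 and the esculetin mean 65.4 ± 5.32 (SD, n = 2 each), a difference smaller than the control spread. The difference of -6.40 percentile points became 0.0839 without C1, -12.9 without C2, -2.64 without E1 and -10.2 without E2. Taken among promoter peaks only it was -1.37, and over the 21 constitutive genes called in all 4 libraries -12.4. The difference turned to 7.07 in lists of equal length and was -2.76 with the 5′ end of the gene as the only start. Proteasome promoters were thus called more often than those of other coding genes, but the called ones did not stand higher in every list.

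The immunoproteasome genes were called at 2, 3, 2 and 3 of 5, against 30, 30, 22 and 30 of 34 constitutive genes. Their shares of 40%, 60%, 40% and 60% were at or above those of all coding genes (40.0%, 41.2%, 29.5% and 37.2%). Psmb9 had 41.7 and 52.6 in C1 and C2 and 46.2 and 57.5 in E1 and E2, and its groups overlapped. Its start lies 226 bp from the divergent start of Tap1, a subunit of the peptide transporter of antigen presentation, and the same peak served both genes in all 4 libraries. Psme2 had 92.6 and 73.8 against 76.7 and 75.9. Its summits lay 7 to 17 bp upstream of the start except in C2, where the summit was 609 bp upstream and near the divergent start of Rnf31 at 641 bp. Psme1 was called in C2 at 47.7 and in E2 at 65.4.

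Psmb8 had no peak within 1 kb of its start or in its body in any library. Psmb10 had 1 peak, in its body in C1, at percentile 65.3 and 1285 bp past the start. Psmb8, Psmb9 and Tap1 lie in the same stretch of the major histocompatibility complex on chromosome 17. The median of the called immunoproteasome genes was 67.2, 52.6, 61.4 and 65.4, or 0.219 to 12.8 percentile points below that of the constitutive genes. This median rests on 2 or 3 genes per library and carries no test.

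Both other activators had promoter peaks. Psme3, which forms a nuclear cap, had 65.7 and 76.1 in the controls and 26.3 and 71.2 in the esculetin libraries. Psme4, a single-chain activator, had 61.2 and 80.1 in the controls, no peak in E1 and 40.7 in E2. Psmb11, the thymus-specific catalytic subunit, and Psma8, the testis-specific alpha subunit, had no peak at the promoter or in the body of any list.

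Of the 3 members not counted as subunits, Psme3ip1 had 96.9 and 83.8 in the controls and 83.0 and 91.9 in the esculetin libraries, the third highest mean. Psmc3ip had 18.4 and 35.3 against 24.7 and 44.8, the lowest mean of the genes called in all 4 libraries. Psme2b was called in C2 alone, at 80.3, with its summit 784 bp inside a gene of 1066 bp. It counts as a promoter peak only by the 1 kb rule. Reads that fit both Psme2 and Psme2b were removed by the authors where they mapped to several places, so this value is uncertain.

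Promoter peaks lay close to the start. The summit was within 200 bp of it at 33 of 36, 34 of 38, 27 of 27 and 37 of 37 called members. Among all coding genes it was so at 6774 of 8583, 6906 of 8854, 5124 of 6337 and 6494 of 7991 called genes. The median distance was -43.5, -39.5, -36 and -35 bp, where negative is upstream, and the median width of these peaks was 423, 453, 445 and 420 bp. Over all coding genes the median distance was -45, -41, -47 and -46 bp. At the 26 members called in all 4 libraries the summits ranged over a median of 68.5 bp between libraries, and over at most 100 bp at 19 of them.

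**Figure D3:**
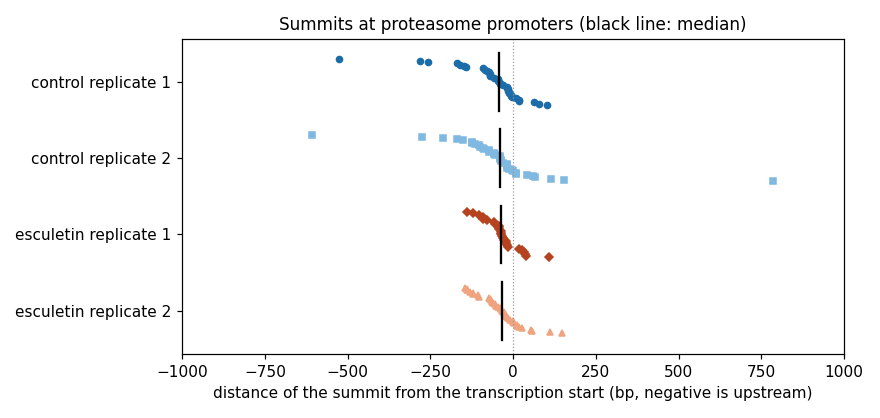
Distance of the promoter summit from the annotated start (x axis, bp, negative upstream) for every called member in each library (rows), with the median as a black line. Most summits lie within 200 bp of the start in each library, and the farthest are at 784 and -609 bp in C2.

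The comparison of groups was made on the 26 members with a promoter peak in all 4 libraries. By percentile in the list, 10 were lower in both esculetin libraries than in both controls, against 30.1% of the 5642 coding genes with a peak in all 4. These were Psma1, Psma3, Psma4, Psma6, Psma7, Psmb2, Psmd3, Psmd4, Psmd13 and Psmd14. Another 6 were higher in both (Psma2, Psmb6, Psmc5, Psmd2, Psmd5 and Psmd8), against 14.5%. The other 10 overlapped. With E2 left out 16 members were lower, and with E1 left out 12 were higher. These counts are over the members called in every kept library, a set other than the 26. The share of coding genes was not computed for them. The median over the 26 was 81.0, 74.7, 61.1 and 71.0, and over the 5642 coding genes 80.2, 75.1, 63.5 and 76.1.

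These directions depended on the scale. When the percentile was taken among promoter peaks only, 7 members were lower in both esculetin libraries (27.0% of the 5642) and 8 were higher (20.4%). By fold enrichment 3 were lower (10.7%) and 4 higher (21.3%). By rank from the top 1 was lower (4.34%) and 11 were higher (48.9%), a count that list length sets in part, since no peak of E1 can rank past 8677. With each list at its 8677 strongest peaks, 17 members had a promoter peak in all 4. Of these, Psma4 was lower in both esculetin libraries (6.96% of 3202 coding genes), and Psma2, Psmd3, Psmd5 and Psme3 were higher (37.1%). The promoter peak at Psma4, which lies inside AY074887, was thus lower and that at Psma2 higher by each of these measures. Psmd2 and Psmd8 were higher by both percentiles and by fold, but were below the limit of both controls in the lists of equal length. Psmd3 was lower by percentile in the whole list and higher in the lists of equal length.

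The folds of Psma2, Psmd2 and Psmd8 did not overlap between the groups. Psma2 had folds of 6.26 and 8.12 in the controls and 8.92 and 9.62 in the esculetin libraries. Psmd2 had 4.13 and 4.73 against 5.41 and 4.84, and Psmd8 had 4.26 and 4.92 against 5 and 6. The gaps between the nearest libraries of Psmd2 and Psmd8 were small. Psma2 shares its promoter with the mitochondrial ribosomal gene Mrpl32, whose divergent start lies 205 bp away, so its peak cannot be assigned to 1 of the genes.

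**Figure D4:**
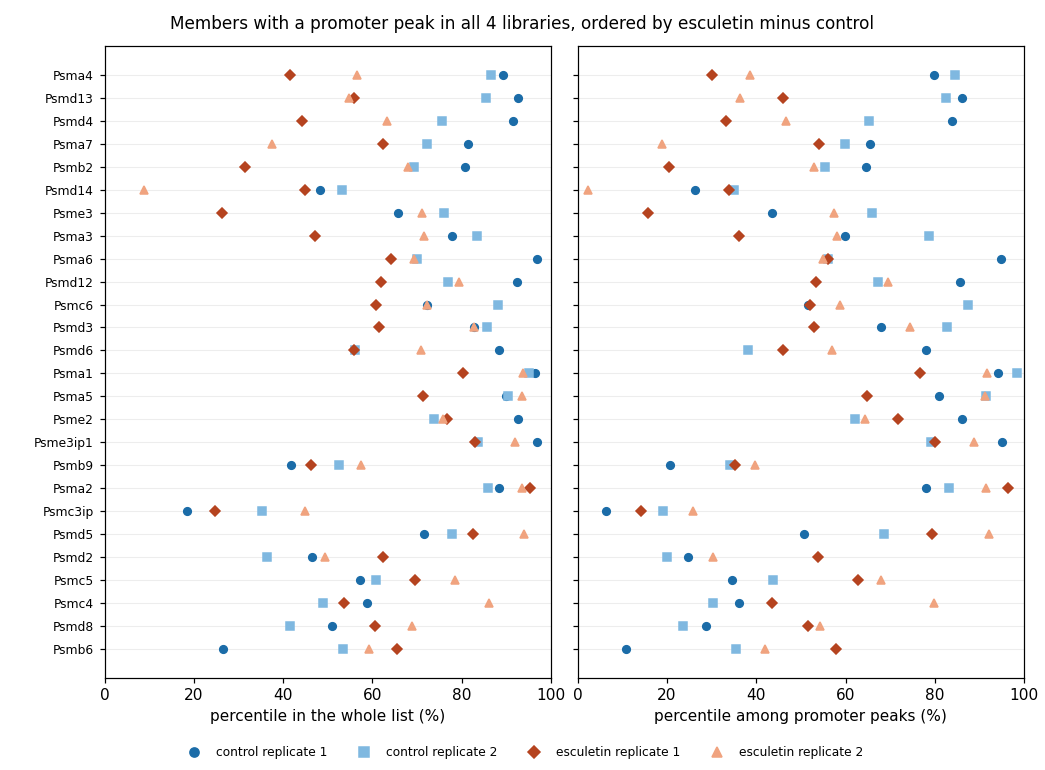
Percentile of the promoter peak in the whole list (left) and among promoter peaks (right), in percent, for the 26 members called in all 4 libraries (rows, ordered by the esculetin minus control difference on the left), with 1 symbol per library. Psma4 at the top lies lower and Psma2, Psmd2 and Psmd8 lie higher in both esculetin libraries on both scales, while Psmd3, Psmd14 and Psma6 are separated on the left only.

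At 7 constitutive genes a coding partner on the opposite strand started within 1 kb. The partner of Psma4 overlaps it rather than diverging from it. In C1 and E2 the peak of Psmc2 lies at its second start, away from that of its partner. These 7 were called in C1 and C2 and E1 and E2 at 7, 7, 5 and 7 genes, and the 27 without such a partner at 23, 23, 17 and 23. In shares these are 100%, 100%, 71.4% and 100% against 85.2%, 85.2%, 63.0% and 85.2%. Over all coding genes, the 2155 with such a partner were called at 85.0%, 85.3%, 71.3% and 82.3% and the other 19313 at 35.0%, 36.3%, 24.9% and 32.2%. The median percentile at the 7 members was 81.3, 72.3, 62.5 and 54.8, against 74.1, 60.6, 61.4 and 70.9 at the 27. The order of these medians turned in E2, where over all coding genes it was 74.3 with a partner and 64.6 without.

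Peaks inside the genes and more than 1 kb from a start were counted apart. The gene was taken over its annotated bounds, so a body peak can lie upstream of a start. The body peak of Psma3 in C1 lies at -4629 bp from its start, where negative is upstream. Such body peaks were found at 6 and 18 members in C1 and C2 and at 0 and 3 in E1 and E2. Over coding genes the shares were 16.7%, 29.4%, 5.29% and 9.32%, against 13.0%, 39.1%, 0% and 6.52% of members. The mean was 12 ± 8.49 in the controls and 1.5 ± 2.12 in the esculetin group (SD, n = 2 each), and both esculetin libraries were lower. The difference of -10.5 genes became -4.5 without C2 and -16.5 without C1. With each list at its 8677 strongest peaks it was -6.5, from 1, 12, 0 and 0 members in the order of the libraries. Members were shorter than coding genes in general, with a median length of 10817 bp against 17535 bp.

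Most body peaks came from C2, which had 29, against 7, 0 and 3 in the other libraries. Of the 29, 11 lay past 80% of the gene, and in 13 members the body peak ranked above the gene's own promoter peak or stood where there was none. The share of coding genes like these 13 was not computed. In the same list 32.7% of all body peaks of coding genes lay past 80% of the gene, against 18.2% to 20.7% in the other lists. The share of pseudogene peaks given above also moved with this library. The part of either in these body peaks was not tested.

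Body peaks of C2 reached the top of the list at 5 members. Psmd7 had one at 98.9, located 89.5% along the gene, and Psmd11 one at 95.0, located 97.2% along. Psme3 had one at 96.1, located 79.0% along. Psmd13 had a peak at 98.9 on chr7:140890871-140892041, over the annotated pseudogene Gm15542, where C1 had a peak at 4.84. Psma6 had one at 98.7.

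Few body peaks recurred. Psme3ip1 had one 64.2% to 64.7% along the gene in both controls and in E2, at 51.0, 41.6 and 14.6, within 145 bp of each other. Psma6 had one in C1 at 51.0, and another of C2 at 25.6 lay 139 bp away. Both lie upstream of the start that carried its promoter peaks. Psmd11 had body peaks in C2 and E2 at different places, 97.2% and 91.5% along. Outside the members, 3 of 6 pseudogenes of proteasome subunits had a peak, all in C2 only: Psma5-ps at 97.8, Psmb6-ps2 at 93.9 and Psmb7-ps2 at 91.2.

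**Figure D5:**
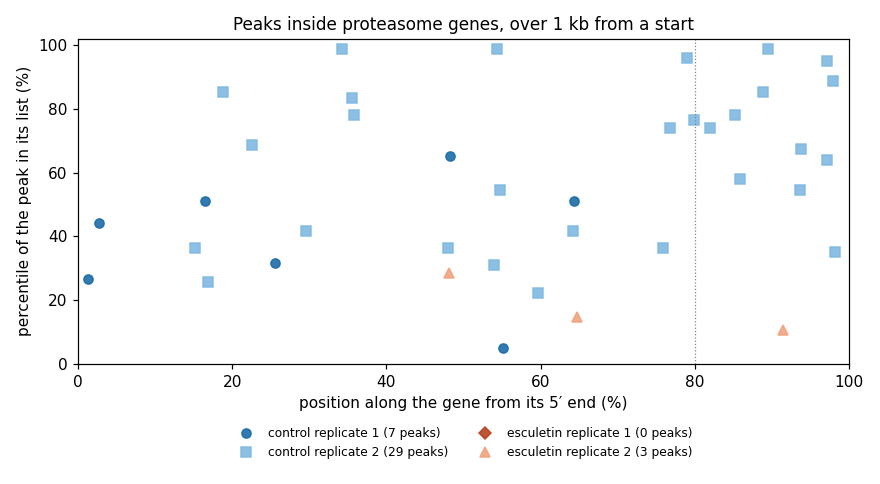
Peaks inside proteasome genes more than 1 kb from a start, by position along the gene (x axis, percent from the 5′ end) and percentile in their list (y axis, percent), with 1 symbol per library and a dotted line at 80% of the gene. Most points are from C2, which has 11 to the right of the line, and E1 has none.

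Other genes of the pathway were read in the same way. Of 16 listed, 15 were in the table, and 13, 13, 8 and 12 had a promoter peak in C1 and C2 and E1 and E2, with 7 in all 4. Of all coding genes 40.0%, 41.2%, 29.5% and 37.2% had one, and 26.3% in all 4. Nfe2l1, the transcription factor that induces proteasome genes when degradation fails, had 95.1 and 79.4 in the controls and 82.3 and 96.3 in the esculetin libraries. Vcp, which extracts ubiquitinated proteins for the proteasome, had 97.3 and 82.3 against 71.3 and 97.7. The groups of both overlapped. Akirin2, which brings proteasomes into the nucleus, had 85.6 and 76.8 against 36.4 and 68.5, and Psmg1, an assembly chaperone, had 88.0 and 69.8 against 22.5 and 68.0. Psmg3 had no promoter peak in any library.

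The regulators and neighbours of the immunoproteasome genes had promoter peaks at 6, 5, 4 and 5 of 7, against the same shares of coding genes. Irf1, an interferon-responsive activator of these genes, had 49.3 and 71.0 in the controls and 64.3 and 74.5 in the esculetin libraries. B2m, the light chain of class I molecules, had 34.0 and 73.0 against 37.8 and 89.5. Both overlapped between the groups. Tap2, the partner of Tap1 in the peptide transporter, had no promoter peak in any library.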

How the data were processed

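Per the labels and the methods of the study, paired-end reads from RAW264.7 nuclei were trimmed with Trim Galore, aligned to mm10 with Bowtie2, freed of duplicates and multiply mapped reads, and given to MACS2, which called peaks in each library. The study lists the versions of these tools, which are not repeated here, and the peak-caller options are not given in the sources used here. The authors' deposited lists hold a score for display, a linear fold enrichment (ratio), for each summit its −log10 p, its −log10 q and its offset. They hold no read counts, so depth was solved from the fold and the −log10 p of 2000 sampled peaks per list (fold as summit plus 1 over background plus 1, with a Poisson p).

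Starts were taken from the RefSeq promoter table of GRCm38.p6 for 39 members and 17492 of 21468 coding genes. This replaced the planned 5′ end of the gene, because gene bounds include predicted transcripts. The other 7 members kept the 5′ end. Their strand came from GENCODE by symbol, which gave the strand of the promoter table for 99.43% of the 22110 genes in both. Exon and intron annotation was not used here. Some items are not reported here. The strongest summit within 1 kb was the promoter peak, a summit in the gene over 1 kb from each start a body peak. Comparisons used 21 chromosomes. Percentiles were ranked on the −log10 p, with ties at their mean.

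Groups were compared as mean ± SD (n = 2) and by two-sided exact permutation tests over the 6 groupings of 4 libraries, which cannot go below 0.33. Of 200 promoter and 200 body peaks planted in a simulated list, 200 and 200 were returned. They were planted inside the windows of the rules, and any call at a planted promoter counted. This checks the code only and says nothing on the real lists. Alternatives were other windows, assignment by any base, either gene end, a stricter q, lists of equal length, other scales, left-out libraries and the replicate block. The members and lists were chosen with earlier results of these data known. Values are given for all immunoproteasome genes, their counterparts, activators and tissue-restricted genes, members not called in all lists, members with recurrent body peaks or with groups that do not overlap, and the 3 highest and 3 lowest by mean percentile. SciPy 1.17.1, NumPy 2.4.6 and pandas 2.3.3 were run under Python 3.11.15, and figures were drawn with matplotlib 3.10.9.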

Additional observations from a re-analysis of the deposited data

How the results depend on the processing

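The lists limit the results in 3 ways. Each group had 2 libraries, so the permutation test has a floor at p = 0.33. Percentiles depend on the length of the list, and the esculetin lists were the shorter ones. A member without a peak was below the limit of that list, which is not shown to be closed chromatin.

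With each list at its 8677 strongest peaks, the difference in members with a promoter peak turned from -5 to 8, and that of the constitutive median percentile from -6.40 to 7.07. The share of members minus that of coding genes was then 30.6 in place of 38.0 percentage points, and 1 member in place of 10 was lower in both esculetin libraries. Members with a body peak differed by -6.5 in place of -10.5 genes. By rank from the top, the constitutive median differed by -3365.75 ranks, nearer the top in the esculetin group, the immunoproteasome median lay 1538 ranks below the constitutive one, and 1 member was lower and 11 were higher. The lists of equal length hold fewer members, 17 with a peak in all 4, and ranks in E1 end at 8677. Beyond that the cause was not tested.

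With 1 library left out at a time, the constitutive difference ranged from -12.9 to 0.0839 percentile points. The number of members lower in the kept esculetin libraries than in the kept controls ranged from 12 to 16, and the number higher from 6 to 12. The members compared change with the library left out, and the share of coding genes was not computed for these counts. The difference in members with a promoter peak ranged from -10 to 0 and in members with a body peak from -16.5 to -4.5. With the replicate block, which pairs libraries of the same number, the mean differences stay at -5 and -10.5 genes by construction, and the smallest paired exact permutation p is 0.5. The numbers pair nothing stated in the labels, and with 2 pairs their agreement was not tested. Windows of 500 bp and 2 kb, assignment by any base, either gene end, a −log10 q of at least 5, percentiles of the fold and a body starting 2 kb past the start kept the direction of each result they were run on and stayed within 1.5 times its value. With percentiles among promoter peaks, the constitutive difference was -1.37 percentile points, and 7 members were lower and 8 higher in place of 10 and 6, so lower members no longer outnumbered higher ones. Other alternatives were run after seeing the data. The 5′ end of the gene was the start first planned. With it alone, the difference in members with a promoter peak was -5.5 genes and the constitutive one -2.76 percentile points. Without the 3 members not counted as subunits the former was -4.5, and over members called in all 4 libraries the latter was -12.4.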

Other observations

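Several members start close to a neighbour outside the proteasome. The start of Dnajc2 lies 11 bp from that of Psmc2, that of Ss18l1 19 bp from Psma7, and that of Atg4a 196 bp from Psmd10, each on the opposite strand. Rspry1 starts 215 bp from Psme3ip1.

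Markers of other cell types had peaks in the gene body though not at the promoter. Cd3d, a T cell receptor component, had a body peak in all 4 libraries. In C2 Col1a1 had 4 body peaks, Col1a2 had 3, and Pdgfra and Apoa1 had 1 each, with 0 in the other 3 libraries. Pax2 and Cdh16 had 1 each in C1 only. Among macrophage markers without a promoter peak, Csf1r had 2 and 3 body peaks in C1 and C2 and 0 in both esculetin libraries.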
